A study of Brassica napus with 24 samples.

Results

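BnaAnng07910D, annotated as a proline dehydrogenase in the study's list of differentially expressed genes, of which a part was read, was followed in leaves of rapeseed (*Brassica napus* cv. Trezzor, wild type). It was 1 gene of the 101040 in the deposited count tables. The gene was chosen from these same data, for its rise with age in well-watered leaves and for its level under mild and severe deficit. Its levels in the 8 groups are therefore given as a description, with no test.

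All plants grew for 30 days at 80% of field capacity (FC, the water that the potting soil holds after draining). Control plants then stayed at 80% FC, whereas watering of the plants under water deficit (WD) was stopped until the pots fell below 50% FC (harvest at 5 d) and then to 25% FC (harvest at 11 d). Other WD plants were held at 50% FC until 18 d or at 25% FC until 20 d, and controls were harvested on each occasion. Leaf blades that had developed during the deficit were taken, and 3 libraries per group, 24 in all, were sequenced, each described by the study as an independent replicate made of 2 plants. For the first harvest the study's methods give a lower soil water than the labels. Libraries harvested on first reaching 25% FC carry the date of the 5 d harvest in the labels, and they were treated as 11 d because of their soil water. The group held at 50% FC is not described in the text of the paper. P-values measure the spread between these libraries.

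Proline dehydrogenase is a flavin enzyme of the inner mitochondrial membrane that oxidises proline to pyrroline-5-carboxylate and passes the electrons to the respiratory chain. Pyrroline-5-carboxylate dehydrogenase, an aldehyde dehydrogenase, then makes glutamate, which glutamine synthetase can amidate to glutamine, a form in which nitrogen leaves ageing leaves. Proline is also an osmolyte that plants accumulate when water is short, and in *Arabidopsis thaliana* transcripts of proline dehydrogenase fall during dehydration and rise again on rewatering. Neither proline nor enzyme activity is part of the count tables.

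The libraries held between 13263953 and 31112368 counts on genes, with a median of 15710704. Some of them stood apart from their group. A position along leaf ageing was computed for each library from all tested genes except BnaAnng07910D. It was set so that the mean 5 d control lies at 0 and the mean 20 d control at 1. In the controls, leaf age, plant age and harvest day cannot be told apart, and age is used here for all of them. Replicate 3 of the WD plants at 18 d lay at 0.231, whereas replicates 1 and 2 lay at 0.745 and 0.785. The value of replicate 3 fell inside the range of the WD plants at 11 d, 0.163 to 0.379. The 11 d controls spread from 0.218 over 0.594 to 0.999, nearly the whole distance between the 5 d and 20 d controls. Results that rest on the 18 d WD plants are given with and without replicate 3, whose difference from its group was not traced to a source. Of the leaf markers, 3 genes annotated as chlorophyll a-b binding proteins were detected in every library, with medians over the libraries of 5.31, 13.4 and 48.4 counts per 1000000 gene counts (CPM). In these bulk leaf samples, fewer cells of a type and less RNA per cell cannot be told apart.

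In well-watered leaves the level of BnaAnng07910D was low at 5 d and 11 d and higher at 18 d and 20 d. At 5 d the controls held 1.27, 2.19 and 3.87 CPM in replicates 1 to 3. At 11 d they held 2.14, 3.25 and 5.15 CPM. The ranges of these harvests overlapped, since only replicate 3 at 11 d exceeded every 5 d control. At 18 d the values were 12.5, 10.6 and 9.21 CPM, and at 20 d 16.6, 33.9 and 24.7 CPM. Each 18 d control was higher than every earlier control, and each 20 d control was higher than every 18 d control.

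The control means (± SD, n = 3) were 2.44 ± 1.31 CPM at 5 d, 3.51 ± 1.52 at 11 d, 10.8 ± 1.66 at 18 d and 25.0 ± 8.67 at 20 d. Relative to 5 d, the mean was 1.44-fold higher at 11 d, 4.41-fold higher at 18 d and 10.3-fold higher at 20 d. Between the last harvests, 18 d and 20 d, the means differed 2.32-fold. Separation of groups of 3 libraries was common in these data: 23.9% of the 54835 tested genes were higher in all 18 d controls than in all 5 d controls, 27.4% in the 20 d controls than in the 5 d controls, and 8.22% in the 20 d than in the 18 d controls. The gene's separation is what it was chosen for, and nothing is read from it.

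**Figure D1:**
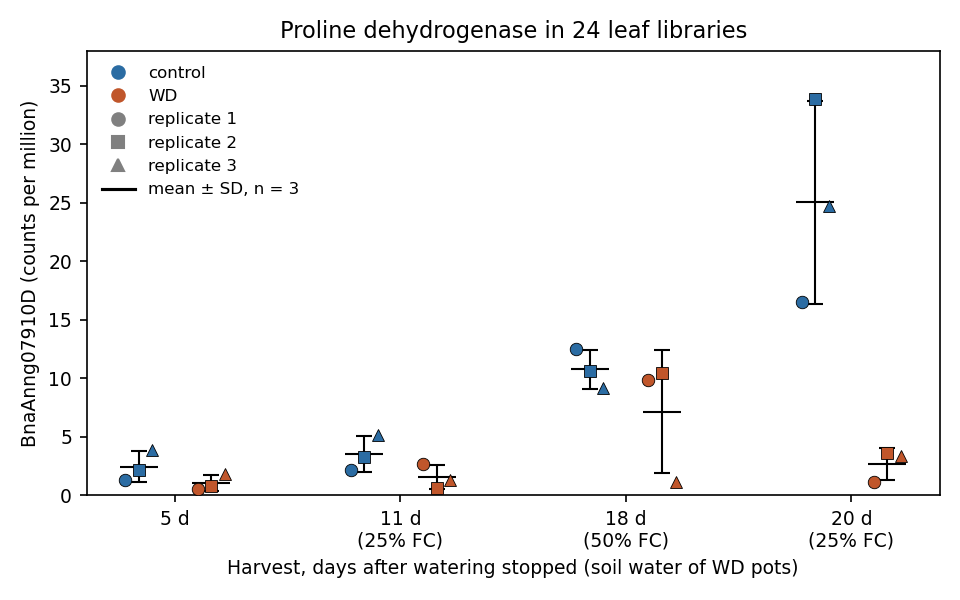
BnaAnng07910D in CPM in each of the 24 libraries (linear axis from 0), by harvest. Blue symbols are controls and orange symbols WD plants, the symbol shape gives the replicate number, and bars are the mean ± SD of 3 libraries. The 20 d controls (16.6 to 33.9) stand above all other libraries, and at 18 d a single WD library (1.13) lies far below the other WD libraries of its group (9.89 and 10.5).

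Under water deficit the level was low throughout, except in a pair of the 18 d libraries. At 5 d the WD plants held 0.572, 0.783 and 1.82 CPM in replicates 1 to 3. At 11 d, at 25% FC, they held 2.64, 0.663 and 1.34 CPM. Replicate 3 at 5 d and replicate 1 at 11 d lay inside the range of the controls, so that the groups overlapped. The other 2 WD libraries of each harvest lay below every control. In 9.92% of all tested genes at 5 d and 9.61% at 11 d every WD library was lower than every control. The WD means (± SD, n = 3) were 1.06 ± 0.667 CPM at 5 d and 1.55 ± 1.01 at 11 d, or 43.3% and 44.1% of the control means. The lowest 5 d library rested on 9 counts, with an exact 95% Poisson interval of 0.262 to 1.09 CPM that covers counting error only.

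After 18 d, with the soil held at 50% FC, the WD libraries did not resemble each other. Replicates 1 and 2 held 9.89 and 10.5 CPM, within the range of the controls, and replicate 3 held 1.13 CPM, from 19 counts. In 13.8% of all tested genes the 3 WD libraries were lower than every control. With all 3 libraries the mean was 7.17 ± 5.23 CPM (SD, n = 3), or 66.5% of the control mean. Without replicate 3 it was 10.2 CPM, or 94.5% of the control mean. The left-out library was 9.01-fold lower than the mean of the others, and the fitted log2 fold change between WD and control turned from -0.29 to 0.33 without it. It turned to 0.03 when replicate 1 of the 18 d controls was left out instead. With an SD of this size, no direction of the mild deficit can be given for this gene.

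After 20 d at 25% FC the WD plants held 1.10, 3.64 and 3.34 CPM, and each was lower than every control of that harvest. The mean was 2.695 ± 1.39 CPM (SD, n = 3), or 10.8% of the control mean, so that the controls were 9.29-fold higher. In 24.2% of all tested genes every WD library was likewise lower than every control at 20 d. The 20 d WD libraries overlapped with the controls of 5 d (1.27 to 3.87 CPM) and with the WD plants of 5 d (0.572 to 1.82 CPM). The WD mean was 2.55-fold higher at 20 d than at 5 d, and the control mean 10.3-fold.

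The WD libraries at 18 d were 2.66-fold higher on average than those at 20 d, and 3.78-fold higher without replicate 3. Replicates 1 and 2 at 18 d exceeded all 20 d WD libraries, and replicate 3 lay within their range. The mild and severe treatments differed in soil water, in the length of the holding period and in the harvest day, which cannot be told apart.

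Ordered by their means, the groups ran from the 20 d controls over the 18 d controls, the 18 d WD plants, the 11 d controls, the 20 d WD plants, the 5 d controls and the 11 d WD plants to the 5 d WD plants. Only the first neighbours in this order, the 20 d and 18 d controls, did not overlap. Each later group overlapped with the next one. The highest library, replicate 2 of the 20 d controls, was 59.2-fold above the lowest, replicate 1 of the 5 d WD plants. In total 2787 counts fell on the gene, between 9 and 526 per library, and 49.8% of them came from the 20 d controls.

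**Figure D2:**
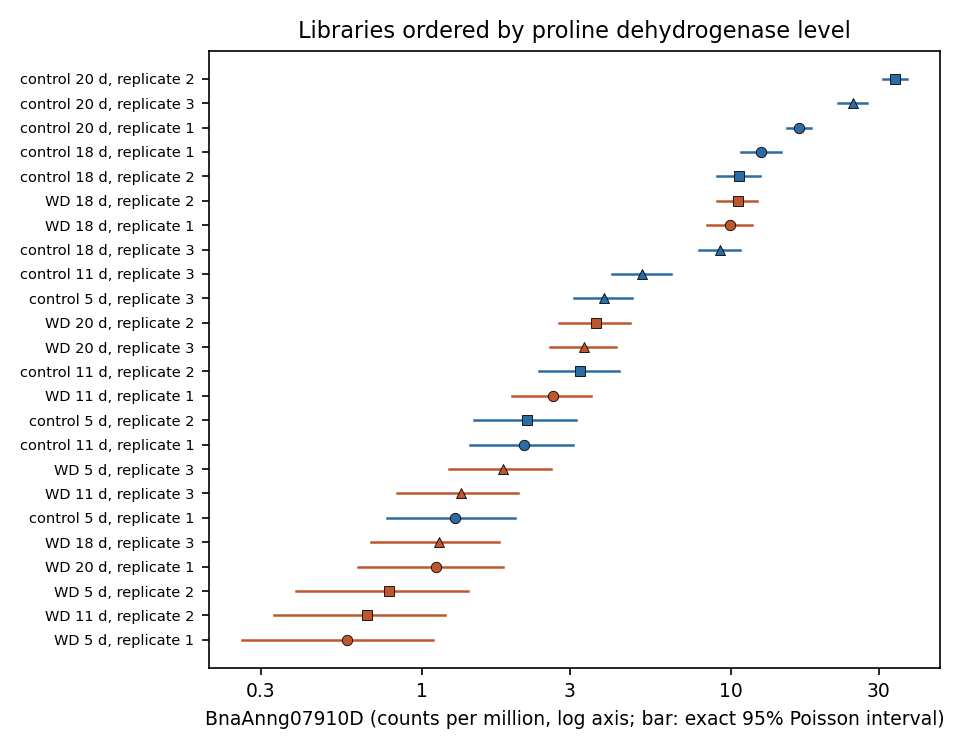
The 24 libraries in the order of their BnaAnng07910D level, in CPM on a log axis, with exact 95% Poisson intervals as bars (counting error only). Blue symbols are controls and orange symbols WD plants. All 18 d and 20 d controls and replicates 1 and 2 of the 18 d WD plants lie at 9.21 and above, and every other library lies at 5.15 or below.

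Replicates of a group differed more for BnaAnng07910D than for most genes of its level. The pooled SD within groups was 0.71 on the scale of log2(normalized CPM + 1), against a median of 0.26 for 19949 genes of similar mean level. Of those genes, 5.12% had a larger SD. The 18 d WD plants, with the low replicate 3, had an SD of 1.47 on this scale, and the other groups between 0.23 and 0.70. The pooled SD thus rests in large part on that group, and it was not computed without replicate 3. In the 5 d groups replicate 3 was the highest library of both treatments, with 3.87 CPM in the controls and 1.82 CPM in the WD plants. In the other harvests no replicate number was the highest in both treatments, apart from replicate 2 at 20 d.

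The fitted log2 fold changes between WD and control were -1.23 at 5 d, -1.09 at 11 d, -0.29 at 18 d and -2.87 at 20 d. Of all tested genes, 1.61% had a lower value at 5 d, 8.93% at 11 d, 26.4% at 18 d and 2.56% at 20 d. Against the 5 d controls, the fitted log2 fold changes of the controls were 0.38 at 11 d, 1.96 at 18 d and 3.12 at 20 d, and 27.0%, 7.70% and 5.10% of genes had a higher value. These comparisons share the 5 d controls, and each WD comparison shares its controls with the ageing comparison of its harvest. The gene was chosen for its levels in these groups, so nothing is read from its place among all genes. When replicate 3 of the 11 d controls was left out, the change between 5 d and 11 d turned to -0.074. Leaving out replicate 1 of the 11 d WD plants moved the 11 d value from -1.09 to -1.85.

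The scale on which levels are expressed bears on these values. Among 19128 genes with at least 5 normalized CPM in every library, the median log2 difference between WD and control at 20 d was -0.34 in CPM and -0.02 after TMM normalization, which sets libraries on a common scale. BnaAnng07910D differed by -3.34 in CPM and by -3.01 after normalization. At 18 d the median difference of all these genes was -0.20 in CPM and 0.05 after normalization, and between the 20 d and 5 d controls it was 0.22 and -0.03. The groups that overlapped in CPM also overlapped in normalized CPM, and those that did not remained apart.

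The strand of the reads was a readout that had no part in the choice of the gene. Over all libraries 20 read pairs, or 0.713% of those on the gene, lay on the forward strand, opposite to the counted one. They came from 8 libraries with at most 5 pairs each, and 14 of them from the 20 d controls, where the gene itself was highest. Over all genes the forward share lay between 0.301% and 0.479% in the libraries.

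The genes with the most similar pattern were sought among the other 54834 tested genes, by Pearson's r of log2(normalized CPM + 1) with BnaAnng07910D over the 24 libraries. These values are a description without p, since the libraries share their harvests and treatments and the highest values of many were taken. The r exceeded 0.9 for 51 genes and was under -0.9 for 11. The 10 most similar genes had r between 0.919 and 0.943. With replicate 3 of the 18 d WD plants left out, an alternative chosen after seeing the data, their r lay between 0.917 and 0.941, and 45 genes exceeded 0.9.

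Transport proteins were among these 10. BnaA10g12280D (r = 0.940), annotated as a Ctr copper transporter, a family that brings copper into cells, held 0.268, 0.377 and 0.3597 CPM in the 5 d controls and 5.56, 10.6 and 7.24 CPM in the 20 d controls. In the 20 d WD plants it held 0.294, 1.03 and 0.961 CPM. Each 20 d control was above all libraries of both other groups. In the 18 d WD plants it held 4.35, 3.79 and 0.178 CPM, so that replicate 3 was again the low library. Its log2 fold change was 4.25 between the 20 d and 5 d controls (adjusted p = 0.0025, edgeR's quasi-likelihood test) and -2.96 between WD and control at 20 d (adjusted p = 0.0174). The second of these lost its call without replicate 1 (adjusted p = 0.0748) or replicate 2 (0.0510) of the 20 d WD plants, or replicate 2 of the 20 d controls (0.0588).

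BnaC06g32880D (r = 0.925), annotated as a plant sucrose/H+ symporter, a type of protein that loads sucrose across membranes, held 0.134, 0.0754 and 0.225 CPM in the 5 d controls and 4.27, 6.96 and 6.67 CPM in the 20 d controls. It held 3.09, 3.20 and 0.357 CPM in the 18 d WD plants and 0.810, 0.789 and 1.57 CPM in the 20 d WD plants. BnaAnng00630D (r = 0.925), with a heavy metal-associated domain, a fold that binds metal ions, was the most abundant of the 10. Its mean was 12.5 CPM in the 5 d controls and 108.6 CPM in the 20 d controls, and 19.2 CPM in the 20 d WD plants. In the 18 d WD plants it held 67.1, 86.5 and 13.9 CPM, and replicate 3 was close to the 5 d controls.

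The others of the 10 were BnaC04g44730D (r = 0.939), a glycosyl transferase of family 8, BnaA06g38450D (r = 0.934), with a VQ motif, BnaA05g05930D (r = 0.929), a protein kinase with a lectin-like domain, and BnaA03g45510D (r = 0.921), with a lectin-like domain. BnaC01g02240D (r = 0.943), the most similar of all, was listed without an annotation, and BnaC09g23240D (r = 0.927) and BnaA06g36700D (r = 0.919) were not in the list that was read. All 10 were called higher in the 20 d than in the 5 d controls, and each remained so whichever library was left out. At 20 d, 6 of the 10 were called lower in WD than in control plants. That count lay between 1, without replicate 1 of the 20 d WD plants, and 10 when single libraries were left out. These genes were picked for sharing the pattern, so the counts are no support for it. For reference, 18% of all tested genes were called higher in the first comparison and 11% lower in the second.

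All 10 genes had their lowest 18 d WD value in replicate 3. By edgeR's quasi-likelihood test 0 were called between WD and control at 18 d, where 5.5% of all genes were, with 0 at an unadjusted p under 0.05 and 0 by DESeq2. Without replicate 3 the count was again 0. After removal of the group means, r of the 10 genes lay between 0.811 and 0.892, but the same libraries had picked them, so this is no further check. The order of likeness depended on the measure. Spearman's rho of the 10 lay between 0.831 and 0.921, but only 1 of them was among the 10 with the highest rho, and 5 were among the 10 with the highest r at a pseudocount of 0.1 in place of 1.

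The most opposite genes were BnaC03g77430D (r = -0.939), BnaA08g03870D (-0.916), BnaCnng09180D (-0.914), BnaC04g55490D (-0.913) and BnaA02g29880D (-0.913), none of which was annotated in the list that was read. BnaC03g77430D had a mean of 6.96 CPM in the 5 d controls and 3.87 CPM in the 20 d controls, and 7.80 CPM in the 20 d WD plants. All 5 were highest in replicate 3 among the 18 d WD libraries, where BnaC03g77430D held 9.16 CPM against 3.58 and 4.08 CPM.

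**Figure D3:**
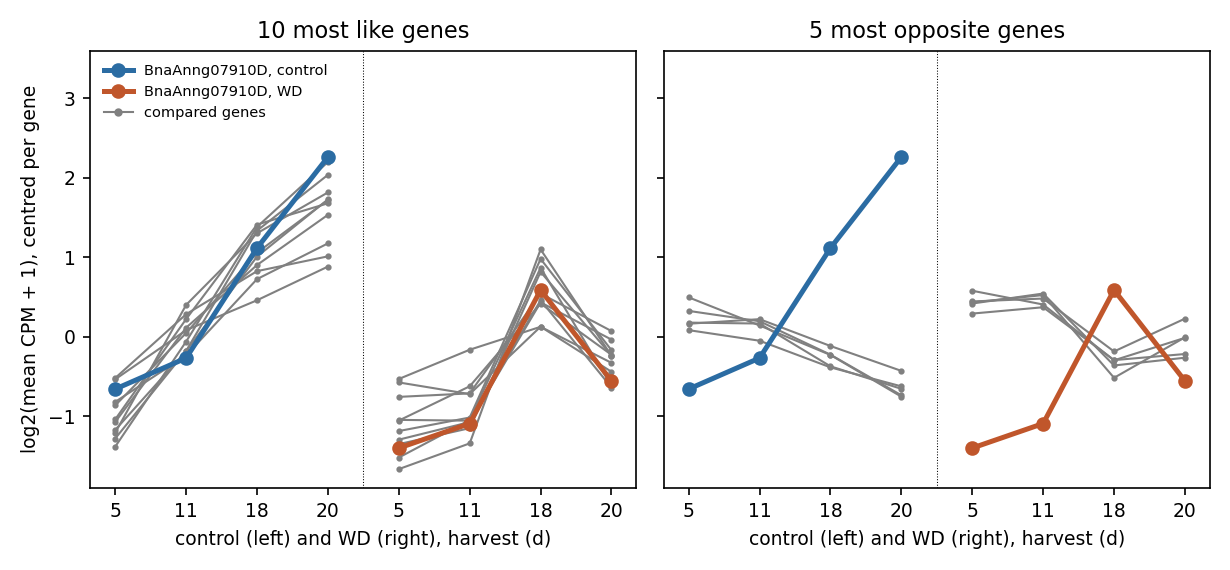
Log2(mean CPM + 1) per group, centred on each gene's mean over the 8 groups, for BnaAnng07910D (thick lines, blue for controls and orange for WD plants) and for the 10 genes most like it (left, grey) or the 5 most opposite to it (right, grey). The horizontal axes give the harvest day of controls and then of WD plants, and points are means of 3 libraries. The like genes are higher at each later control harvest and highest at 18 d among the WD groups, and the opposite genes span a smaller range in the other direction.

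Genes of neighbouring steps were taken from the annotations of the study's list of differentially expressed genes, of which the first 1999 were read. The study chose that list on these samples, for differences between WD and control plants, so that calls in such comparisons were favoured in advance. The counts of called genes are therefore not independent evidence of a change or of a direction. Shares over all genes are given beside them for reference only. BnaAnng07910D was the only gene annotated there as a proline dehydrogenase. Calls used edgeR's quasi-likelihood test with a threshold of 0.05 on p-values adjusted over 54835 genes. In either direction 0.0675% of all genes were called between WD and control at 5 d, 11.3% at 11 d, 5.5% at 18 d and 19.8% at 20 d, and 11%, 20.9% and 31.7% in the 11 d, 18 d and 20 d against the 5 d controls. At 5 d 0 of the 64 listed genes were called by this test, with 17 at an unadjusted p under 0.05, 4 by DESeq2 and 3 by edgeR's likelihood ratio test.

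The 3 listed glutamine synthetases were called higher in the 20 d than in the 5 d controls and lower in WD than in control plants at 20 d. The gene BnaC02g06690D held 92.3, 64.8 and 75.2 CPM in the 5 d controls and 630.3, 957.8 and 517.6 CPM in the 20 d controls. In the 20 d WD plants it held 86.8, 71.3 and 79.7 CPM. Every 20 d control was far above both other groups, which overlapped with each other. Its log2 fold change was 2.93 ± 0.49 (SE) between the 20 d and 5 d controls (adjusted p = 0.00073, edgeR's quasi-likelihood test) and -2.83 ± 0.49 between WD and control at 20 d (adjusted p = 0.0011).

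In the 11 d controls BnaC02g06690D held 124, 293 and 616 CPM, the same order of libraries as their ageing positions and as the levels of BnaAnng07910D. In the 11 d WD plants it held 44.3, 28.8 and 38.8 CPM. At 18 d the controls held 511, 498 and 412 CPM and the WD plants 109, 141 and 51.5 CPM. Here the glutamine synthetase differed from BnaAnng07910D: replicates 1 and 2 of the WD plants were far below all controls for BnaC02g06690D and within the control range for BnaAnng07910D.

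The other 2 glutamine synthetases of the list, named after their values were seen, were BnaA02g03140D and BnaA10g17910D. BnaA02g03140D had means (± SD, n = 3) of 51.3 ± 9.44 CPM in the 5 d controls, 355.9 ± 107 CPM in the 20 d controls and 56.7 ± 2.96 CPM in the 20 d WD plants. BnaA10g17910D had means of 2.97 ± 1.15, 9.39 ± 0.472 and 2.85 ± 1.59 CPM in the same groups. Of the 3 genes, 3 were called higher in the 18 d and in the 20 d than in the 5 d controls, where 12.1% and 18% of all genes were. At 11 d and at 20 d 3 of 3 were called lower in WD than in control plants, against 7.72% and 11% of all genes. The list was chosen for such calls, so nothing is read from the difference to these shares.

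At 18 d 1 of the 3, BnaC02g06690D, was called lower in WD plants (log2 fold change -1.96, adjusted p = 0.0235), where 2.53% of all genes were. None was called without replicate 3 or replicate 1 of the 18 d WD plants, nor without replicate 1 or 2 of the controls. The call of BnaA10g17910D at 20 d (adjusted p = 0.0482) was close to the threshold, and with single libraries left out 2 or 3 of the 3 were called. The median log2 fold change of the 3 genes was 2.56 in the 20 d against the 5 d controls and -2.34 in WD against control plants at 20 d, beside 0.00 and -0.05 over all tested genes.

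Aldehyde dehydrogenases, the family that holds the enzyme of the next step of proline breakdown, went another way under deficit. All 3 listed genes were called higher in WD than in control plants at 11 d and at 20 d, where 3.6% and 8.76% of all genes were. BnaA07g34930D had means (± SD, n = 3) of 7.43 ± 0.904 CPM in the 20 d controls and 27.2 ± 4.65 CPM in the 20 d WD plants, a log2 difference of 2.18 ± 0.21 (SE, adjusted p = 8.6e-06, edgeR's quasi-likelihood test). In the 18 d plants it had 8.97 ± 0.679 CPM in the controls and 16.9 ± 0.996 CPM in the WD plants, and it was the 1 of 3 called there, with and without replicate 3. Which of the 3 act on pyrroline-5-carboxylate is not given by the annotation. Without single libraries the count was 2 or 3 at 11 d and likewise at 20 d.

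In the ageing controls the aldehyde dehydrogenases did not move together. In the 20 d against the 5 d controls BnaA07g34930D was called higher (log2 fold change 0.67, adjusted p = 0.0227) and BnaA09g41460D lower (-0.59, adjusted p = 0.0422). Over all genes, 18% were called higher and 13.7% lower there. The call of BnaA07g34930D was lost without any of 4 libraries, and that of BnaA09g41460D without any of 9. The median of the 3 genes was 0.09, far below the 3.12 of BnaAnng07910D.

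Of 5 amino acid transporters, 2 were called higher in the 20 d than in the 5 d controls and lower in WD than in control plants at 20 d. Of all tested genes 18% were called higher in the first comparison, and 11% lower and 8.76% higher in the second. BnaC07g36580D, a cationic amino acid transporter, had means (± SD, n = 3) of 0.876 ± 0.413 CPM in the 5 d controls, 70.0 ± 21.2 CPM in the 20 d controls and 0.951 ± 0.0693 CPM in the 20 d WD plants. BnaA04g10600D, a transmembrane amino acid transporter, had 0.489 ± 0.185, 26.7 ± 3.84 and 0.323 ± 0.159 CPM. BnaA04g10600D was highest in the 11 d controls, at 57.1 ± 65.8 CPM. In the 18 d WD plants the genes had 2.12 ± 1.36 and 0.951 ± 0.315 CPM, and 2.80 and 1.13 CPM without replicate 3. Both were called lower in WD than in control plants at 11 d, 18 d and 20 d. Both were also called higher in all later controls than in those of 5 d, where 8.1% of all genes were at 11 d. Neither call between the 11 d and 5 d controls was left without replicate 3 of the 11 d controls. The same held without replicate 2 or 3 of the 5 d controls. At 18 d, 1 of the pair was called lower without replicate 2 or 3 of the WD plants, and 0 were called lower without replicate 1 of the WD plants or replicate 1 or 2 of the controls. Over all genes 7.72% were called lower in WD plants at 11 d and 2.53% at 18 d. In the 18 d against the 5 d controls 4 of the 5 transporters were called higher, where 12.1% of all genes were. That count was 2 without replicate 2 or 3 of the 5 d controls or replicate 1 of the 18 d controls.

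The remaining 3 transporters were called higher in WD plants at 20 d, BnaCnng50730D most, from 4.30 ± 0.570 to 7.50 ± 1.07 CPM (log2 fold change 1.12 ± 0.31, SE, adjusted p = 0.018, edgeR's quasi-likelihood test). None of these 3 calls was left without replicate 2 of the 20 d WD plants, or without replicate 1 or 3 of the 20 d controls.

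Of 4 acyl-CoA dehydrogenases or oxidases and branched-chain aminotransferases, which act in the breakdown of fatty acids and of other amino acids, BnaA03g35400D, a branched-chain amino acid aminotransferase, rose in the controls. Its mean went from 2.23 ± 1.72 CPM at 5 d to 18.4 ± 13.1 CPM at 20 d, with a log2 fold change of 3.21 ± 0.73 (SE, adjusted p = 0.0037, edgeR's quasi-likelihood test). Its level was 1.40 ± 0.785 CPM in the 18 d WD plants, or 1.48 CPM without replicate 3, and 20.4 ± 7.12 CPM in their controls. In this list 2 genes were called higher and 1 lower in the 20 d than in the 5 d controls, where 18% and 13.7% of all genes were. In WD against control plants at 20 d 2 were called higher and 0 lower, where 8.76% and 11% of all genes were. In the controls 1 was called higher without replicate 2 or 3 of the 5 d or replicate 2 of the 20 d controls, and 0 lower without replicate 1 or 2 of either. At 20 d 1 was called higher under deficit without replicate 3 of the controls. The gene called lower with age was BnaC03g49190D, an acyl-CoA oxidase, from 9.28 ± 0.848 to 7.10 ± 1.05 CPM (log2 fold change -0.64 ± 0.22, SE). The largest rise under deficit at 20 d was in BnaC09g06780D, also an acyl-CoA oxidase, from 9.39 ± 2.91 to 14.0 ± 1.24 CPM (0.90 ± 0.23).

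Basic-leucine zipper factors include the proteins that activate proline dehydrogenase in *Arabidopsis thaliana*. The annotation gives domains of the 13 listed genes but does not name which of them these are. In the 20 d against the 5 d controls 8 were called higher and 1 lower, where 18% and 13.7% of all genes were. At 20 d 4 were called higher and 3 lower in WD plants, where 8.76% and 11% of all genes were. The 8 fell to 5 without replicate 2 or 3 of the 5 d controls. The 4 fell to 1 or 2 without any single library of the 20 d WD plants or 20 d controls. BnaA08g20970D, annotated with a DOG1 domain, had 0.0775 ± 0.0116 CPM in the 5 d controls, 15.9 ± 3.00 CPM in the 20 d controls and 1.76 ± 0.769 CPM in the 20 d WD plants. It held 12.3 ± 5.20 CPM in the 18 d controls and 1.40 ± 1.44 CPM in the 18 d WD plants, or 2.04 CPM without replicate 3. BnaC04g01070D, with a G-box binding domain, went from 22.0 ± 3.70 CPM in the controls to 60.7 ± 29.3 CPM in the WD plants at 20 d. Its log2 fold change was 1.78 ± 0.39 (SE, adjusted p = 0.0048, edgeR's quasi-likelihood test). The 1 gene called lower with age was BnaA06g29270D, with a basic leucine-zipper C-terminal domain. It went from 29.9 ± 2.03 CPM in the 5 d to 15.2 ± 3.12 CPM in the 20 d controls (-1.24 ± 0.25, adjusted p = 0.0016, same test). Under deficit at 20 d it was also called lower (-1.08, adjusted p = 0.0070, same test).

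Among 8 genes with a senescence annotation, 4 were called higher and 0 lower in the 20 d than in the 5 d controls, where 18% and 13.7% of all genes were. In WD against control plants at 20 d 4 were called higher and 0 lower, where 8.76% and 11% of all genes were. The higher count with age was 7 without replicate 1 of the 5 d controls. The higher count under deficit was 2 without replicate 2 of the WD plants or replicate 1 or 2 of the controls. The sets differed: BnaA04g28420D, called with age, had -0.17 (adjusted p = 0.797) under deficit at 20 d. BnaA04g28420D went from 0.931 ± 0.195 to 21.9 ± 5.58 CPM between 5 d and 20 d in the controls (log2 fold change 4.30 ± 0.48, SE, adjusted p = 0.00016, edgeR's quasi-likelihood test). BnaA01g11770D went from 1.93 ± 0.527 CPM in the controls to 21.0 ± 5.15 CPM in the WD plants at 20 d. At 18 d 0 of the 8 were called by edgeR's quasi-likelihood test with all libraries, with 4 at an unadjusted p under 0.05 and 3 by DESeq2. Without replicate 3, 4 were called higher in WD plants. With all libraries 2.97% of all genes were called higher there, and the share without replicate 3 is not given. The median log2 fold change of the 8 genes under deficit at 20 d was 1.57, opposite in sign to the -2.87 of BnaAnng07910D.

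Dehydrins and late embryogenesis abundant proteins protect cells that lose water. Of 25 listed genes 18 were called higher and 0 lower in the 20 d than in the 5 d controls, where 18% and 13.7% of all genes were. The higher count was 12 without replicate 3 of the 5 d controls. Between WD and control plants at 20 d, 11 were called higher and 5 lower, where 8.76% and 11% of all genes were. The higher count was 2 without replicate 2 of the WD plants or replicate 1 of the controls, and 3 without replicate 3 of either, and the lower count lay between 2 and 9 with single libraries left out. The dehydrin BnaC02g45160D went from 0.667 ± 0.609 to 46.8 ± 26.5 CPM under deficit at 20 d. BnaA04g21040D was at 0 in all 5 d controls and at 7.13 ± 2.43 CPM in the 20 d controls. BnaA05g12930D went the other way under deficit, from 2.65 ± 1.05 CPM in the 20 d controls to 0.0202 ± 0.0350 CPM, or 1 count, in the 20 d WD plants. In the list of 3 chlorophyll a-b binding proteins, BnaC08g16790D was called lower with age, from 5.51 ± 0.212 to 3.17 ± 0.909 CPM. Under deficit at 20 d it was called higher, at 4.53 ± 0.347 CPM, but not without replicate 2 of the WD plants or replicate 1 or 2 of the controls. BnaC02g44590D was called lower under deficit at 20 d, from 20.6 ± 3.74 to 3.76 ± 0.374 CPM.

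The CPM of the 25 genes were also summed in each library. The sum follows mainly a few abundant genes and not the list as a whole. In replicate 1 of the 18 d WD plants, BnaA07g11450D, BnaC05g15780D, BnaC06g36880D and BnaA07g32420D held 945, 910, 857 and 637 CPM. The sum was 911.9 to 1787 CPM in the 5 d controls and 2177 to 3809 CPM in the 20 d controls. In the 20 d WD plants it was 3774 to 6057 CPM. At 18 d the WD replicates 1 and 2 stood at 4113 and 5645 CPM and replicate 3 at 2066 CPM, below all 18 d controls (2195 to 3033 CPM). In both groups the WD library with the lowest sum also had the lowest level of BnaAnng07910D. At 20 d this was replicate 1, with 3774 and 1.10 CPM. Replicates 2 and 3 had sums of 5799 and 6057 CPM and held 3.64 and 3.34 CPM of BnaAnng07910D. The 20 d controls matched this, but the 18 d controls and both treatments at 5 d and 11 d did not. At 11 d the lowest sums went with the highest gene levels, 1549 with 2.64 CPM in WD plants and 1400 with 5.15 CPM in controls. The part of replicate 3 in the 18 d results was not tested beyond leaving it out. At 18 d 0 of the 25 genes were called in WD against control plants by edgeR's quasi-likelihood test, with 14 at an unadjusted p under 0.05 and 5 by DESeq2. Without replicate 3, 10 were called higher. With all libraries 2.97% of all genes were called higher there. The share without replicate 3 is not given, so the count of 10 has no share from its own fit beside it.

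**Figure D4:**
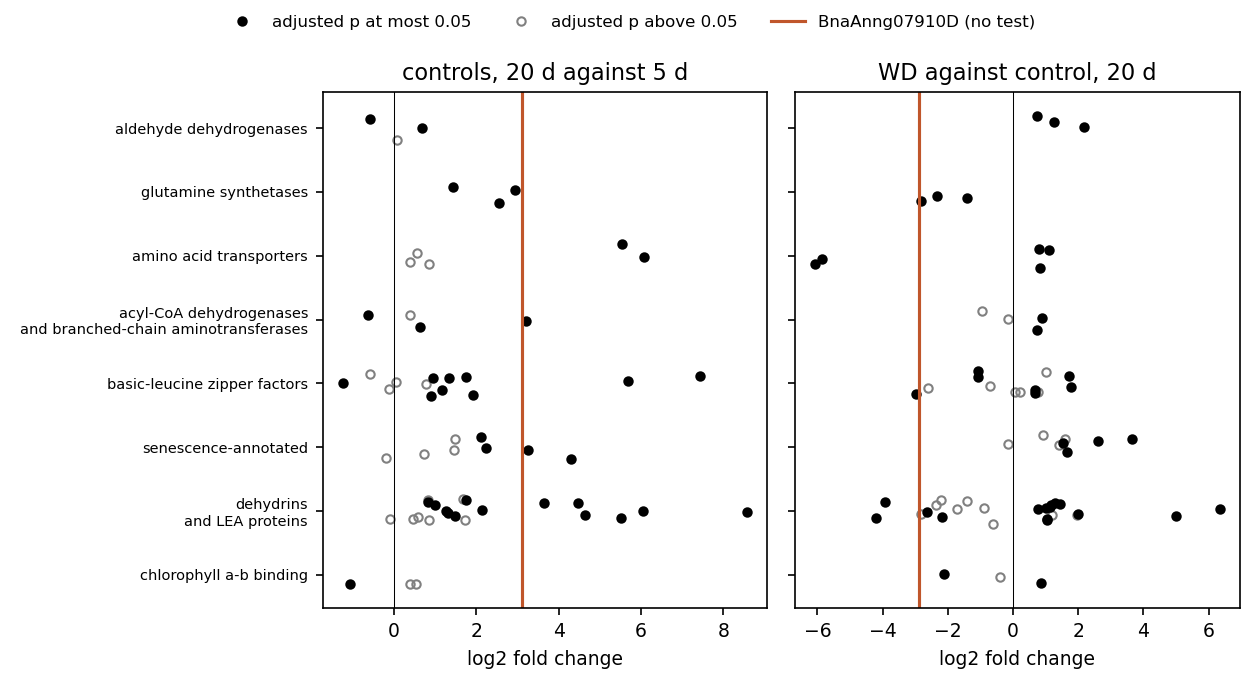
Fitted log2 fold changes of the listed genes in the 20 d against the 5 d controls (left) and in WD against control plants at 20 d (right), by list. Filled points had an adjusted p of at most 0.05, open points a larger one, the orange line marks BnaAnng07910D (3.12 and -2.87, not tested), and 5 of the 64 genes on the left and 1 on the right are left out because a group had at most 3 counts. The 3 glutamine synthetases lie on the side of BnaAnng07910D in both panels, and the 3 aldehyde dehydrogenases lie on the other side of 0 on the right.

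For the severe against the mild deficit, the response at 20 d minus that at 18 d was -2.59 for BnaAnng07910D on the log2 scale, and -3.22 without replicate 3 of the 18 d WD plants. Of all tested genes 1.12% had a lower value, and 2.25% were called in either direction. The gene was chosen for such a pattern, so nothing is read from its place among all genes. Of the 64 listed genes 3 were called, and 0 of the 3 glutamine synthetases by edgeR's quasi-likelihood test, with 0 at an unadjusted p under 0.05 and 0 by DESeq2. Their differences lay between -1.10 and -0.87, and between -1.42 and -1.27 without replicate 3 of the 18 d WD plants, where 2 had an unadjusted p under 0.05 and 0 were called.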

How the data were processed

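Poly(A) RNA of 24 leaf samples was sequenced as stranded pairs of 75 bases. Per the labels and the study's methods, the authors trimmed reads with Trimmomatic 0.36 (quality 20, minimum length 30), removed ribosomal reads with sortMeRNA 2.1 and mapped with STAR 2.7.3a to the Genoscope annotation V5, allowing up to 20 loci. The authors deposited raw counts per gene from STAR, unstranded and for each strand, and the reverse strand was used. Pairs on lines naming no gene (15.8% to 19.2% of a library, of which those at several loci made up 7.77% to 9.45% of all) stayed out of library totals. Reads of near-identical copies of a gene in this polyploid may be among them, so that levels of single copies are uncertain.

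Levels are counts per 1000000 gene counts (CPM). Genes with at least 0.6 CPM in at least 3 libraries were tested (54835), with TMM normalization and edgeR 4.0.16 (limma 3.58.1, R 4.3.3), using the quasi-likelihood test over all 24 libraries with a replicate block as in the study's methods, and Benjamini-Hochberg adjustment at 0.05. Likeness used a pseudocount of 1. The fit was tested on simulated data. Alternatives were no block, no filter, unstranded counts, DESeq2 1.42.0, its size factors, a likelihood ratio test, only 18 libraries, and leaving out each library. Python 3.11.15, numpy 2.4.6, pandas 2.3.3, scipy 1.17.1 and matplotlib 3.10.9 were used.

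The gene and the lists were chosen with earlier results of these data known. Named were BnaAnng07910D, the 10 genes with the highest and the 5 with the lowest r, and in each list the called gene with the largest rise and fall in WD against control plants at 20 d and in the 20 d against the 5 d controls, with exceptions stated. The 8 lists held 64 genes. The RefSeq table matched 3347 gene IDs by symbol, without BnaAnng07910D, so that lists by RefSeq description and sequences are not analysed here.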

Additional observations from a re-analysis of the deposited data

Results flagged for a closer look

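For 3 genes of the lists the response to deficit differed between 20 d at 25% FC and 18 d at 50% FC by a test of the difference itself (edgeR's quasi-likelihood test, adjusted over all genes), and soil water and harvest day cannot be told apart in it. BnaA01g11770D, a senescence regulator, had log2 fold changes of 3.65 at 20 d and 0.61 at 18 d, a difference of 3.04 ± 0.75 (SE, adjusted p = 0.0424), which was 2.88 (adjusted p = 0.0520) without replicate 3 of the 18 d WD plants. BnaA06g29270D, a basic-leucine zipper factor, had -1.08 and 0.34, a difference of -1.42 ± 0.35 (adjusted p = 0.0427), which was -1.21 (adjusted p = 0.0552) without that library. BnaCnng14300D, a chlorophyll a-b binding protein, had -0.41 and -2.49, a difference of 2.08 ± 0.35 (adjusted p = 0.0073), which was 2.21 (adjusted p = 0.0046) without it.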

How the results depend on the processing

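For BnaAnng07910D the direction turned in 3 cases: the WD value at 18 d was 0.33 without replicate 3 of the WD plants and 0.03 without replicate 1 of the controls, and the 11 d against 5 d control value was -0.074 without replicate 3 of the 11 d controls. With single libraries left out its log2 values ranged from -1.89 to -0.74 (5 d), -1.85 to -0.61 (11 d), -0.82 to 0.33 (18 d) and -3.28 to -2.51 (20 d) for WD against control, from -0.074 to 0.86, 1.68 to 2.42 and 2.82 to 3.58 for the 11 d, 18 d and 20 d against the 5 d controls, and from -3.22 to -2.06 for severe minus mild deficit. In the same order, genes called ranged from 0 to 58, 1464 to 9720, 595 to 4749, 5326 to 12799, 2 to 11868, 6059 to 13345, 10954 to 19203 and 382 to 2875, against 37, 6208, 3016, 10855, 6010, 11467, 17369 and 1236 with all libraries. List genes called ranged from 0 to 1, 13 to 37, 6 to 30, 20 to 49, 0 to 29, 27 to 43, 29 to 48 and 1 to 5, against 0, 34, 13, 42, 24, 39, 42 and 3.

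DESeq2 called 194 genes at 5 d, 4659 at 18 d and 2457 for severe minus mild deficit, with 4, 25 and 7 list genes, and the likelihood ratio test called 154, 4631 and 2427, with 3, 23 and 6. With 18 libraries 18 genes were called at 5 d. Without the replicate block 32, 7058, 3328, 11419, 6768, 11888, 17996 and 1422 genes were called. The numbers were not shown to pair the samples. Over 12 same-numbered WD and control pairs the correlation of deviations averaged 0.173, from -0.0458 to 0.503, with negative values only at 18 d. The average for different numbers was -0.0846, but deviations from a mean of 3 libraries sum to 0, so that it is no separate comparison. Over all pairs of groups, 84 same-numbered pairs averaged -0.0075. For the named genes 1604 values kept direction and side of the threshold, 27 gained and 57 lost a call. Depth limited BnaAnng07910D most in the WD plants at 5 d, with 9 counts in one library.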
